A study of Mus musculus with 18 samples.

Results

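The positive limb of the circadian clock was followed in mouse lung through 6 genes, Arntl (also named Bmal1), Clock, Npas2, Arntl2, Rora and Rorb, chosen as all probes whose RefSeq accession maps to these genes. They were read by 8 probes among the 55681 probes of the array, and are 6 of the 20660 genes that its probes name: Rorb and Arntl2 had 2 probes each and the others 1. The lungs came from male MutaTMMouse aged about 12 weeks, a transgenic strain made for mutation assays. The mice were gavaged every day for 28 days with olive oil alone (vehicle, 5 mice) or with the 4PAH mixture of benzo[a]pyrene (BaP), benz[a]anthracene, benzo[b]fluoranthene and chrysene dissolved in the oil. The daily doses were 12.5 mg (low, arrays of 4 mice), 25 mg (medium, 5 mice) and 50 mg (high, arrays of 4 mice) of BaP equivalents per kg of body weight. The study's methods give the low and high dose groups the same number of animals as the others, and the mice numbered 8 and 19 were not analysed here. Lung was taken 72 h after the last gavage. Every group thus shared the strain, the sex, the gavage and the oil.

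ARNTL pairs with CLOCK, or with its close relative NPAS2, and the dimer binds E-box elements to switch on the Per, Cry and Rev-erb (Nr1d1, Nr1d2) genes as well as output factors such as Dbp. The PER and CRY proteins feed back to stop the dimer, while REV-ERB proteins repress Arntl and ROR proteins activate it, both through the same kind of DNA element. In a cycling tissue such as lung, Arntl RNA therefore peaks at about the opposite time of day to Dbp, Per and Rev-erb RNA. The hour at which each lung was taken is not given in the sources used here.

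The start of the Arntl gene is shown first because letters of that shared ROR and REV-ERB element occur in it. The RefSeq promoter table (build GRCm38.p6) held 10 windows for the members, with all 6 genes matched, each running from 250 bases before to 50 after an annotated start. TAGGTCA, searched like the other motifs on both strands, was found in 1 of the 2 Arntl windows and in no window of the other 5 members, against 2.61% of all 32851 windows. TAGGTTA, the same letters with 1 base changed, was in 1.44% of all windows and in both Arntl windows, which overlap and share the same single site. In the window chr7:113207261-113207560 (plus strand), both stand in capitals, TAGGTTA starting at base -6 and TAGGTCA at base 31 counted from the annotated start.

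Arntl: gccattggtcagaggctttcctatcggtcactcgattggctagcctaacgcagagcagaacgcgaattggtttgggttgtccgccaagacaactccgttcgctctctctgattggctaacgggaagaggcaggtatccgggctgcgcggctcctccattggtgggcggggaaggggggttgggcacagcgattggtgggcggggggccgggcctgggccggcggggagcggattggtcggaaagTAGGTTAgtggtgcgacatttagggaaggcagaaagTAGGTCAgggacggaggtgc

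Nfil3, a repressor of clock output that is no member but was the other clock gene called lower at all 3 doses, held TAGGTCA in its only window. It lies on the opposite strand at base -12 of chr13:52980990-52981289 (minus strand), so that the capitals show its complement. Nfil3 was the only clock gene outside the members whose window was searched. The windows of the clock genes called higher were thus not looked at.

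Nfil3: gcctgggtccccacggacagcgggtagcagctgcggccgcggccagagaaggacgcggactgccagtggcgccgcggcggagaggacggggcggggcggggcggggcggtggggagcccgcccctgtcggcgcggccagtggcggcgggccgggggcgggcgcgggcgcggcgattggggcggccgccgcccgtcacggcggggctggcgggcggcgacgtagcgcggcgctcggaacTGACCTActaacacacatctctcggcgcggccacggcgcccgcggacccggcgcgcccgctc

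The E-box CACGTG, found in 7.15% of all windows, and the D-box TTATGTAA, bound by DBP, TEF, HLF and NFIL3 and found in 0.938%, were in no window of the members. GCGTG, the core letters of the element of the aryl hydrocarbon receptor (AHR), the receptor for polycyclic aromatic hydrocarbons, was in 1 window each of Npas2, Rora and Rorb, in 2 of the 3 Clock windows, and in none of Arntl or Arntl2. It was common, with 32.4% of all windows holding it. The Npas2 window, chr1:39194022-39194321 (plus strand), is shown with GCGTG in capitals. Npas2 is described below as the member well above background in all vehicle mice but in no medium-dose or high-dose mouse.

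Npas2: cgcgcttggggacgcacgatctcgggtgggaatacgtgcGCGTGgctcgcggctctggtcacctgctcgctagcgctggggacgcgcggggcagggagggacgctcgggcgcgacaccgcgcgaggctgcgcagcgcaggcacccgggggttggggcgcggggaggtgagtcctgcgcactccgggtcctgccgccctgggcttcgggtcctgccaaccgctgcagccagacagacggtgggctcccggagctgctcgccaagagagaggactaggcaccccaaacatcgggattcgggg

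Each array compared lung RNA, labelled with Cy5, with a reference RNA pooled from 11 mouse cell lines, labelled with Cy3, and every value below is the log2 ratio of lung over reference for 1 mouse, or a difference of such ratios. A value of a gene is thus a level relative to that reference and cannot be set against the value of another gene. A gene was called when the adjusted p of limma was 0.05 or less and the fold change at least 1.5, and the brightest probe stood for its gene. Median Cy5 signals were between 110 and 142 per array, and 52.9% to 62.1% of the probes were well above background. The 18 arrays lay on 3 slides that each held all 4 groups, but the column on the slide followed the dose group, so that column and dose cannot be told apart. The Cy5 background moved with it, from 70 to 73 in vehicle arrays up to 76.5 to 79 in high-dose arrays. Markers of alveolar, airway, endothelial and macrophage cells were well above background on all arrays. In whole-lung sections, fewer cells of a type and less RNA per cell cannot be told apart.

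Arntl, the activator without which the clock stops, was the one member called, and it was called lower at every dose. Its log2 ratio differed from that of vehicle lungs by -1.04 at the low dose, -1.37 at the medium dose and -1.59 in the high-dose mice, or 2.06-fold, 2.58-fold and 3.02-fold lower. None of the other 5 members was called at any dose, although Rorb passed the adjusted p at the medium and high doses and Npas2 at the medium dose. The vehicle mice 1 to 5 had Arntl ratios of 0.61, 0.14, 0.07, -0.31 and 0.28. Low-dose mice 6, 7, 9 and 10 had -0.88, -0.46, -1.43 and -0.76. Medium-dose mice 11 to 15 had -0.79, -1.51, -1.39, -1.13 and -1.22, and high-dose mice 16, 17, 18 and 20 had -1.57, -1.40, -1.28 and -1.48. Every exposed mouse lay below every vehicle mouse, low-dose mouse 7 coming closest to vehicle mouse 4, and the high-dose mice lay closest together.

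**Figure D1:**
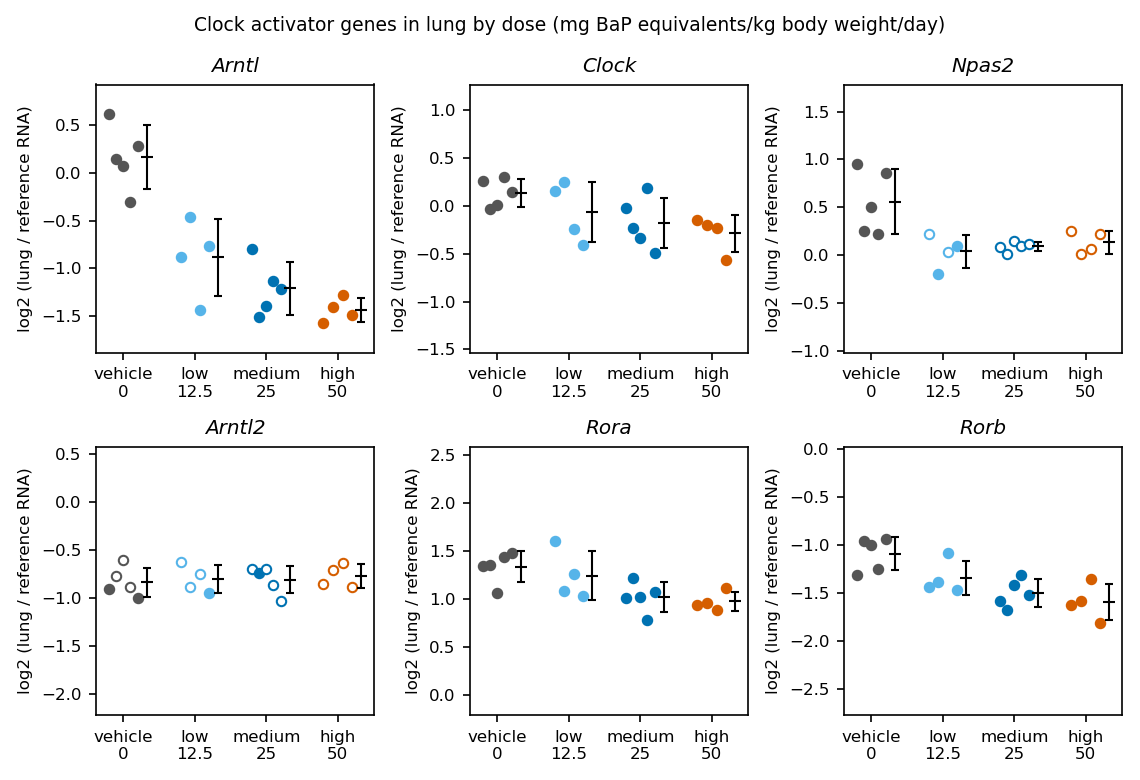
Log2 ratio of lung over reference RNA for each mouse (points), with the group mean and SD (bars), for the probe that stands for each clock activator gene, by dose group in mg BaP equivalents per kg per day. Open points were not well above background. Each panel spans the same range of log2 units, and in Arntl alone no exposed mouse of any dose overlaps the vehicle mice.

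The mean Arntl ratio was 0.16 ± 0.33 (SD, n = 5) in vehicle lungs and -0.88 ± 0.40 (SD, n = 4) in low-dose lungs. It was -1.21 ± 0.28 (SD, n = 5) in medium-dose and -1.43 ± 0.13 (SD, n = 4) in high-dose lungs. By limma the adjusted p was 0.0124 for the low-dose difference (SE 0.18), 7.05e-05 for the medium-dose one (SE 0.17) and 1.35e-05 for the high-dose one (SE 0.18). Among all 55681 probes, the Arntl difference was the 16th lowest at the low dose, the 8th lowest at the medium and the 9th lowest at the high dose. A two-sided exact permutation test over mice gave 0.0159, 0.00794 and 0.0159 at the 3 doses, each the smallest p that the group sizes allow. Of the uncalled members, Npas2 at the medium dose and Clock and Rorb at the high dose also reached that smallest p. These p were not adjusted over the 18 such tests of the members. Within slides, the 9 differences between exposed and vehicle mice of the same slide lay from -1.87 to -1.05, all below 0. The differences of a slide share its vehicle mice, only 1 on slide 3, so the 9 are not independent. The low-dose call was lost without low-dose mouse 9 (-0.86, adjusted p 0.0553 by limma), with median centring of the arrays in place of loess (-0.88, adjusted p 1), and in 2 further settings given at the end. The medium-dose and high-dose calls held in every setting tried.

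The counts of members are set here beside those of the whole array. The 1 member gene of 6 called lower at each dose was Arntl, where 0.0251%, 0.447% and 0.805% of all probes were called lower at the low, medium and high doses. No member was called higher, where 0.0647%, 0.278% and 0.399% of all probes were. With the adjusted p alone, 1 member passed as lower at the low dose, 3 (Arntl, Npas2 and Rorb) at the medium and 2 (Arntl and Rorb) at the high dose, where 0.0718%, 1.89% and 2.38% of all probes did. None passed as higher, where 0.0952%, 1.64% and 1.8% of all probes did. Every exposed mouse lay below every vehicle mouse in 1 member at the low dose (Arntl), in 2 at the medium dose (Arntl and Npas2) and in 3 at the high dose (Arntl, Clock and Rorb), as in 1.45%, 2.04% and 4.33% of all probes. In sign, 5 of the 6 members were lower than vehicle at each dose, and their median differences of -0.22, -0.37 and -0.42 stood beside medians over all probes of 0.00.

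Between the doses Arntl went lower from the low to the high dose in the means, but no difference between doses was called. High against low dose gave -0.55 (95% interval -0.93 to -0.16) with an adjusted p of 0.53 by limma, where 0.0449% of all probes were called in either direction. Medium against low dose gave -0.32 (95% interval -0.69 to 0.04), and high against medium dose -0.23 (95% interval -0.59 to 0.14). No probe of the array was called by limma in these last comparisons, with 2764 and 2084 probes at an unadjusted p under 0.05. The ratios of low-dose mouse 9 lay within the range of the high-dose mice, and those of the other low-dose mice lay above it.

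Clock, the partner of ARNTL that carries the acetyltransferase activity of the dimer, was well above background on all 18 arrays and was not called at any dose. The vehicle mice had ratios of 0.25, -0.04, 0.01, 0.30 and 0.14. Low-dose mice had 0.15, 0.25, -0.24 and -0.41 and medium-dose mice -0.02, -0.23, -0.34, 0.18 and -0.49. High-dose mice had -0.15, -0.21, -0.23 and -0.57. The low-dose and medium-dose mice overlapped the vehicle mice, and the high-dose mice did not. Its differences from vehicle were -0.20 (95% interval -0.49 to 0.09), -0.31 (95% interval -0.59 to -0.04) and -0.42 (95% interval -0.71 to -0.13) at the low, medium and high dose, with adjusted p of 0.783, 0.242 and 0.103 by limma. Those intervals reach to a fall of more than 1.5-fold at the medium and high doses, so a change of that size was not resolved with this number of mice. Within slides, 8 of 9 differences were below 0, again with shared vehicle mice.

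Npas2, which can take the place of CLOCK, was read by a dim probe, and its difference from vehicle at the medium and high doses can only be bounded. It was well above background in 5 of 5 vehicle mice, 2 of 4 low-dose mice, and no medium-dose or high-dose mouse. Yet before normalization the log2 Cy5 signals of high-dose mice 16 and 20 were 6.67 and 6.74. Those of vehicle mice 2 and 3 were lower, at 6.66 and 6.64. The Cy5 background rose with dose, and its part in these counts and in the scanner ratios below was not tested. Ratios were 0.96, 0.25, 0.51, 0.22 and 0.86 in the vehicle mice and 0.22, -0.19, 0.04 and 0.10 in the low-dose mice. Medium-dose mice had 0.09, 0.01, 0.15, 0.09 and 0.12, and high-dose mice 0.25, 0.01, 0.06 and 0.22. Low-dose mouse 7, with the lowest ratio, had a log2 Cy5 signal of 7.20 before normalization, above every vehicle mouse (highest 7.18). Its low ratio thus does not show less lung signal. After normalization the mean log2 Cy5 was 6.44 in low-dose and 6.66 in vehicle lungs, outlier spots included. In the ratio, the medium-dose mice all lay below the vehicle mice, whereas the highest low-dose and high-dose mice reached the lowest vehicle mice. In group means, vehicle lungs were at least 1.31-fold brighter than medium-dose lungs and at least 1.29-fold brighter than high-dose lungs. Here the vehicle mean was set against the lowest signal that counts as well above background, or the probe's own signal where that was higher. These bounds allow for the dim signals but not for the spread between mice. The measured differences of -0.52, -0.47 and -0.42 had adjusted p of 0.131, 0.0311 and 0.0656 by limma. With the ratio of the scanner software, which subtracts background, the differences were far larger, at -1.99, -1.96 and -1.95, but were not called (adjusted p of 0.359, 0.0986 and 0.115 by limma). The medium-dose value thus passed the adjusted p but stayed under the fold limit. All 9 differences within slides were below 0, again with shared vehicle mice.

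Arntl2, a relative of Arntl that can also pair with CLOCK, was near background in every group. Its brighter probe was well above background on 4 of 18 arrays and the other probe on none. The ratios of the brighter probe lay between -1.04 and -0.61 over all mice with full overlap of the groups. Its differences from vehicle were 0.03 (95% interval -0.17 to 0.23), 0.03 (95% interval -0.16 to 0.22) and 0.06 (95% interval -0.14 to 0.26), and for the dimmer probe -0.04, -0.11 and 0.02.

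Rora, a ROR activator of Arntl that is made in many tissues, was well above background in every mouse and not called. The vehicle mice had ratios of 1.34, 1.35, 1.06, 1.44 and 1.48. Low-dose mice had 1.60, 1.08, 1.26 and 1.03, medium-dose mice 1.01, 1.21, 1.02, 0.78 and 1.07, and high-dose mice 0.94, 0.96, 0.88 and 1.12. Vehicle mouse 3 was the lowest of its group and lay within the range of every exposed group, while the other vehicle mice lay above all medium-dose and high-dose mice. Differences from vehicle were -0.10 (95% interval -0.33 to 0.14), -0.32 (95% interval -0.54 to -0.10) and -0.36 (95% interval -0.60 to -0.13), with adjusted p of 0.899, 0.104 and 0.0731 by limma.

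Rorb, the ROR of brain, retina and pineal gland, passed the adjusted p at 2 doses by its brighter probe but stayed under the fold limit. That probe was well above background on all 18 arrays. The vehicle mice had ratios of -1.31, -0.96, -0.99, -1.24 and -0.94. Low-dose mice had -1.43, -1.39, -1.08 and -1.47, medium-dose mice -1.58, -1.68, -1.42, -1.31 and -1.52, and high-dose mice -1.62, -1.59, -1.35 and -1.81. The high-dose mice lay below all vehicle mice, medium-dose mouse 14 touched the lowest vehicle mouse, and low-dose mouse 9 lay among the vehicle mice. Differences from vehicle were -0.25 at the low dose (adjusted p 0.556), -0.41 at the medium dose (adjusted p 0.0262) and -0.50 ± 0.11 (SE) at the high dose (adjusted p 0.00868, 1.42-fold), all by limma. With the ratio of the scanner software, which subtracts background, it was called at the medium (-0.73) and high (-0.71) doses. The second Rorb probe was well above background on 1 array and differed from vehicle by -0.05, -0.24 and -0.20.

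**Figure D2:**
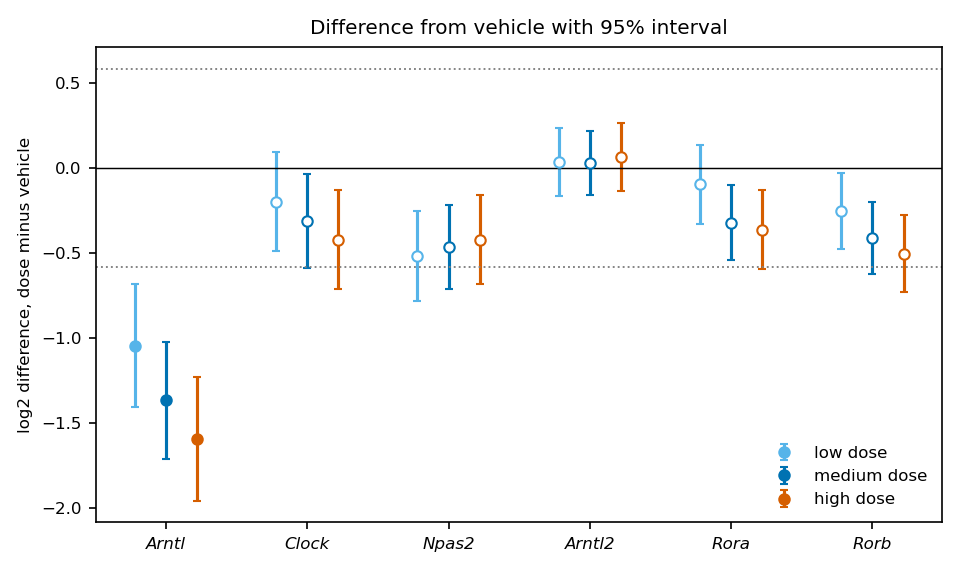
Difference of the log2 ratio from vehicle (points) with its 95% interval from limma (bars) for each clock activator gene at the low, medium and high dose. Filled points were called and dotted lines mark the 1.5-fold limit: the 3 Arntl intervals lie wholly beyond that limit, from -1.04 at the low to -1.59 at the high dose, and no other point reaches it.

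Several of the genes that the ARNTL dimer drives were called higher in the exposed lungs. Of 37 other clock genes, listed by role, 4 were called higher and 1 lower at the low dose, 8 higher and 1 lower at the medium dose, and 9 higher and 1 lower at the high dose. The one called lower was Nfil3 throughout. Without low-dose mouse 9, the number called higher at the low dose was 2, and with median centring the numbers at the 3 doses were 0, 1 and 4 higher and 0 lower. Among the 10 repressors of the negative limb, all 10 were above vehicle in sign at each dose, with medians of 0.43, 0.62 and 0.53, and 2, 5 and 4 of them were called. The period genes Per3 (0.82, 0.91 and 1.03) and the Rev-erb gene Nr1d2 (0.89, 1.03 and 1.14) were called higher at all 3 doses. Nr1d1, the other Rev-erb, was called higher at the medium and high doses (0.95 and 0.69), as was Per2 (0.85 and 1.25). At the low dose Nr1d1 was at 0.91 and Per2 at 0.70, neither called. Per1 was called higher at the medium dose only (0.84). It was at 0.50 at the low and 0.48 at the high dose, not called. The high-dose call of Nr1d1 was lost with the ratio of the scanner software, median centring, Cy5 alone or a trended prior (adjusted p 0.0856 to 0.612 by limma). It also did not hold without vehicle mouse 1, 3 or 5, low-dose mouse 7, medium-dose mouse 12 or high-dose mouse 16, 17 or 20, each left out alone, with adjusted p of 0.0512 to 0.132 by limma. Cry1, dim on every array, differed by 0.12, 0.07 and 0.15. All these comparisons share the vehicle mice with those of Arntl.

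Of the 4 output factors, Dbp rose by 1.81, 2.17 and 2.22 and Tef by 0.86, 0.84 and 0.95, both called at every dose. Hlf differed by 0.80 and 0.74 at the low and medium doses, not called, and by 0.99 at the high dose, where it was first called. Its call was lost with the ratio of the scanner software, median centring or a trended prior (adjusted p 0.06 to 0.444 by limma). Hlf was also not called without vehicle mouse 1 or high-dose mouse 16, 17 or 20, with adjusted p of 0.0526 to 0.0599 by limma. These bind the D-box as activators, and NFIL3 binds it as a repressor. Nfil3 fell by 0.72, 0.81 and 0.82, with adjusted p of 0.00719, 0.000175 and 0.000177 by limma. Its ratios were -0.93, -1.35, -1.06, -1.37 and -1.10 in vehicle mice and -1.92, -1.87, -1.91 and -1.83 in low-dose mice. Medium-dose mice had -1.67, -2.25, -2.23, -1.96 and -1.78 and high-dose mice -2.00, -2.09, -1.81 and -2.03. As with Arntl, no exposed mouse overlapped the vehicle mice.

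Of 14 clock kinases, ubiquitin ligase parts and partners, Usp2, a deubiquitinase, alone was called, at the high dose (0.68). Among 9 further output targets, Wee1, a brake on mitosis, alone was called, at the medium (0.59) and high (0.94) doses. It was at 0.50 at the low dose, not called.

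**Figure D3:**
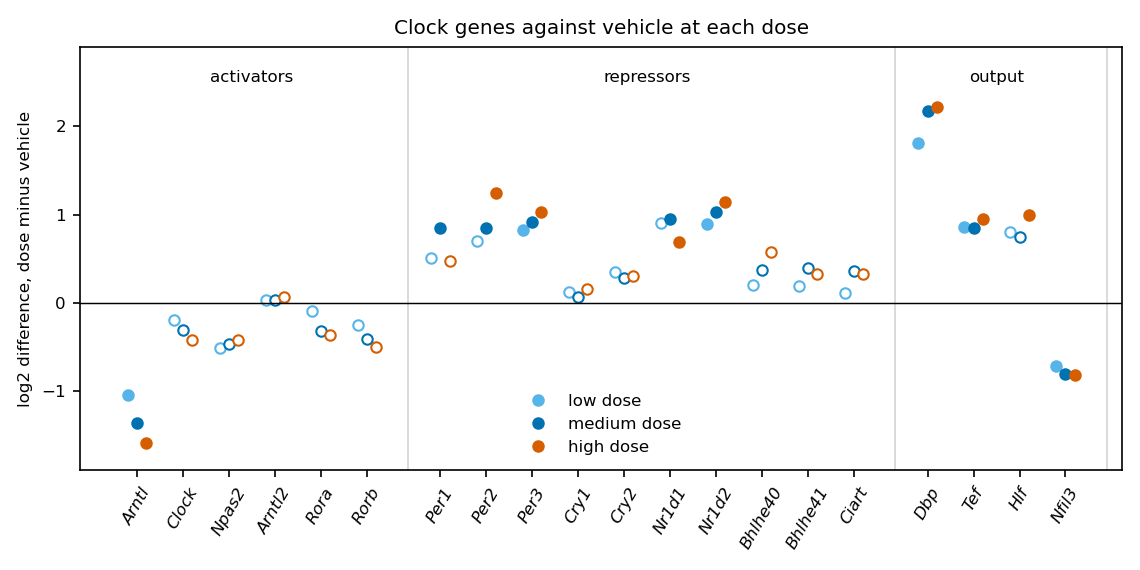
Difference of the log2 ratio from vehicle for the clock activators, the 10 repressors and the 4 output factors at each dose. Filled points were called. Arntl and Nfil3 are the filled points below 0, with Dbp the highest at 1.81, 2.17 and 2.22.

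Mice of the same group also differed in Arntl, and these differences were set against those of the other clock genes after taking each mouse's deviation from its group mean, over 18 mice and 19 genes. Nr1d2 varied most tightly with Arntl and in the opposite sense, with Pearson r = -0.83 (adjusted p = 0.00285) and Spearman rho = -0.81 (adjusted p = 0.0122), by permutation of mice within groups. Dbp had r = -0.76 (adjusted p = 0.0123) and rho = -0.64 (adjusted p = 0.0861), and Hlf r = -0.75 (adjusted p = 0.016) and rho = -0.70 (adjusted p = 0.03), by the same permutation. Nfil3 varied in the same sense as Arntl, with r = 0.66 (adjusted p = 0.00893) and rho = 0.68 (adjusted p = 0.03) by permutation. Without the 2 mice farthest from the median in Arntl, r was -0.79 for Nr1d2, -0.70 for Dbp, -0.81 for Hlf and 0.71 for Nfil3. Among the other genes none reached an adjusted p of 0.05 for r, the nearest being Per3, Cry2, Bhlhe40 and Tef at 0.0782. The raw permutation p were 0.00015, 0.00194, 0.00337 and 0.00094 for the 4 genes in that order. With slide means also taken out, r was -0.89, -0.81, -0.83 and 0.71 for the same genes. It was then also -0.88 for Per3, -0.76 for Tef, -0.73 for Per2 and -0.71 for Cry2, so that the 4 genes no longer stood apart from these.

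Vehicle mouse 1 shows the relation in one animal: it had the highest Arntl ratio of its group, with a deviation of 0.45, and the lowest Dbp and Nr1d2, with deviations of -0.94 and -0.45. None of the other members had a relation with Arntl that passed the test. Clock had r = 0.32 (adjusted p = 0.448), Npas2 0.31 (0.479), Rora -0.27 (0.518), Rorb -0.17 (0.629) and Arntl2 -0.14 (0.703), all by permutation. With slide means also taken out, r was 0.44 for Clock, 0.26 for Npas2, -0.55 for Rora, 0.13 for Rorb and -0.02 for Arntl2. All genes of a mouse share 1 array and 1 RNA sample.

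**Figure D4:**
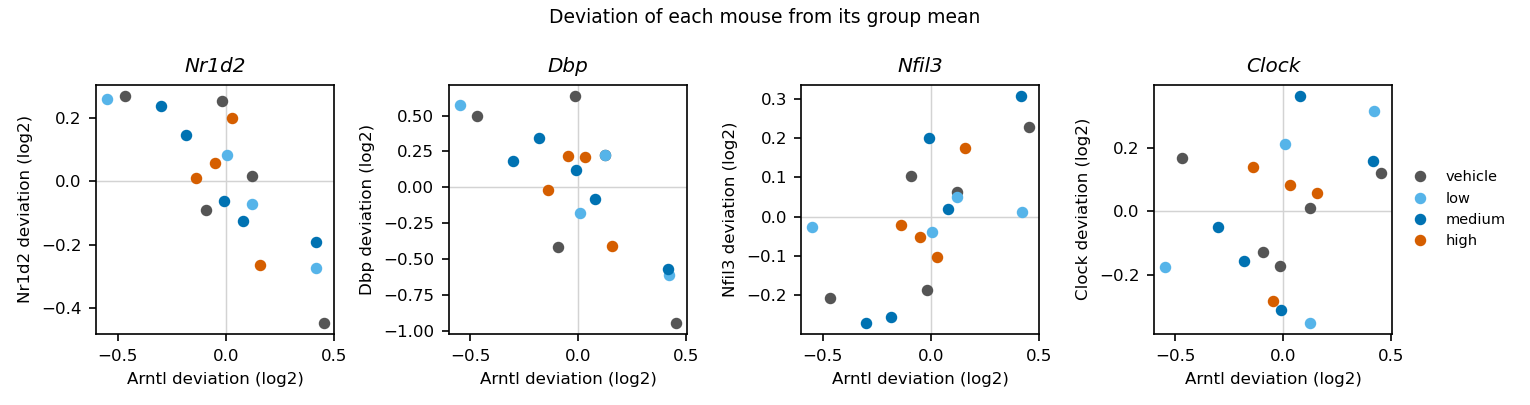
Deviation of each of 18 mice from its group mean, Arntl on the horizontal and Nr1d2, Dbp, Nfil3 or Clock on the vertical axis (log2 units), coloured by dose group. Mice high in Arntl for their group were low in Nr1d2 (r = -0.83) and Dbp (r = -0.76) and high in Nfil3 (r = 0.66), and Clock showed no relation that passed the test (r = 0.32).

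Over 13435 named genes well above background on all arrays, Nr1d2 was the 4th most negative in its r with Arntl, Dbp the 17th and Hlf the 25th. Nfil3 was the 206th most positive. The genes with the most positive r were 1700012B09Rik (0.87), Ankrd42 (0.86), Platr21 (0.85), Ptgr1 (0.83) and Pir (0.82). The most negative were Zer1 (-0.87), Nkd2 (-0.86), Vat1 (-0.83), Nr1d2 (-0.83) and Epop (-0.81). Among these 10 genes, Nr1d2 was the one called at the high dose, and the differences of the others lay between -0.16 and 0.47. These are a description over 18 mice, picked as extremes of a long list.

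Markers of other cell types moved with dose in part. Of 5 fibroblast genes, Col1a1, Col1a2, Col3a1 and Dcn were called lower at the medium and high doses, and the mean log2 ratio of the 5 lay from -0.89 to -0.39 in vehicle mice, -1.27 to -1.01 at the low, -1.71 to -1.11 in medium-dose mice and -1.70 to -0.98 in high-dose mice. None of the 5 was called at the low dose, although the low-dose means all lay below the vehicle means. The endothelial gene Pecam1 was called at the medium and high doses, and Gzma of cytotoxic lymphocytes at the high dose. The study's own gene list also has Gzma lower at the high dose. Cd79b and Ms4a1 of B cells were called at the medium dose, and the other genes of these lists were not called. The directions of the Pecam1, Cd79b and Ms4a1 calls are not given here. The mean ratio of the B cell list was higher, at 1.18 to 1.81 in medium-dose against 0.49 to 1.45 in vehicle mice. The T and NK cell list lay at 0.84 to 1.15 in high-dose against 1.16 to 1.83 in vehicle mice. The endothelial list overlapped, at 4.03 to 4.19 in high-dose against 3.88 to 4.23 in vehicle mice. No gene of the alveolar type 1, alveolar type 2, club, ciliated, macrophage or neutrophil lists was called at any dose. The mean ratio of the alveolar type 1 list still lay lower, without overlap, at 3.70 to 3.89 in high-dose against 3.93 to 4.22 in vehicle mice. In medium-dose mice it lay at 3.79 to 3.97, which overlapped the vehicle mice. The part of these lists, and of the Cy5 background, in the Arntl result was not tested.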

How the data were processed

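Lung RNA of 18 mice was hybridised to 2-colour Agilent mouse arrays against a common reference, with lung always in Cy5. The scanner output that the authors deposited holds spot intensity per channel, read with Feature Extraction 11.0.1.1 per the file headers, and a log10 ratio of Cy5 over Cy3. A table that the authors deposited holds normalized log2 ratios. Set against the values computed here, it correlated at 0.996 to 0.998 per array with slopes of 0.991 to 0.996, so its direction is lung over reference. The study's methods name LOWESS on signals without background subtraction, and the table's medians per array lay between -0.0316 and -0.0191.

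Median intensities without background subtraction were normalized by loess within each array with limma 3.58.1 in R 4.3.3. Control spots and spots marked as outliers had weight 0, outlier spots were then left out (86 probes lacked a value on some array) and spots of a probe were averaged. One linear model over all 18 arrays with moderated variances gave the comparisons, with Benjamini-Hochberg adjustment over 55681 probes within each. The methods of the study name MAANOVA with the same thresholds, and limma stood in for it. The script was tested on simulated data with known answers. The number of arrays limits the precision. Mouse numbers differ between groups and pair no samples. Probes were named by RefSeq accession, which gave 27235 probes a gene.

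The members and the gene lists were chosen with earlier results of these data known. All members, the genes of the clock lists except 3 that are not reported here, and the 5 genes most and the 5 least correlated with Arntl were named by rule. Correlations used 100000 permutations of mice within groups. Alternatives were another background correction, the ratio of the scanner software, the authors' table, median centring, scale and Aquantile normalization, Cy5 alone, slide or, chosen after seeing the data, its row as a block, a filter on dim probes, fits of only the groups compared, outlier spots kept, a trended prior, the adjusted p alone, the mean of a gene's probes, and leaving out each mouse. Each sample was 1 mouse by its title, so the tests measure the spread between mice.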

Additional observations from a re-analysis of the deposited data

How the results depend on the processing

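Arntl was called at the medium and high doses under all 14 alternatives that kept all mice, with differences of -1.77 to -1.20 and -2.05 to -1.34, and without each mouse in turn, with -1.48 to -1.25 and -1.71 to -1.48. Not all of the 14 could move the difference. Aquantile normalization leaves ratios as they are, and the mean of a gene's probes is here that of 1 probe. The filter on dim probes, the trended prior and the fits of only the groups compared use the same ratios. At the low dose Arntl was called under 11 of 14 alternatives. It was lost with the ratio of the scanner software (-1.37, adjusted p 0.057), with median centring (-0.88, adjusted p 1) and with only the groups compared (-1.04, adjusted p 0.0509), where the number of members called was 0 each time. Without each mouse in turn the low-dose difference was -1.18 to -0.86 and was called 17 times, but not without low-dose mouse 9 (-0.86, adjusted p 0.0553), so that the number of members called ranged from 0 to 1. Mouse numbers pair no samples, but the arrays lay in 5 rows of the slides, 3 holding all groups and 2 lacking 1 group. With the row as a fixed block, chosen after seeing the data, Arntl differed by -1.05, -1.37 and -1.67 at the 3 doses (adjusted p 0.0115, 9.3e-05 and 1.48e-05) and no call of a member changed.

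Rorb was called with the ratio of the scanner software at the medium (-0.73, adjusted p 0.0297) and high dose (-0.71, adjusted p 0.0382), which made 2 members called at each, and with the adjusted p alone the counts were 3 and 2. Npas2 stayed uncalled under all alternatives, although the scanner ratio put it at -1.99, -1.96 and -1.95. Of the other clock genes, 2 were called higher at the low dose with the scanner ratio, and with median centring 0, 1 and 4 were called higher and 0 lower at the 3 doses. At the high dose the calls lost with median centring included Per3 (1.04, adjusted p 0.0736), Nfil3 (-0.57, adjusted p 0.698), Usp2 (0.81, adjusted p 0.445) and Wee1 (1.03, adjusted p 0.121). Without each mouse in turn the number called higher at the low dose was 2 (without low-dose mouse 9) to 5.

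Arntl2, uncalled throughout, changed sign at the low dose with the scanner ratio (-0.063) and the mean of its probes (-0.0028), at the medium dose with normexp (-0.0025), scale normalization (-0.0068) and the mean of its probes (-0.044), and without each mouse in turn, at -0.027 to 0.0899 for the low and -0.014 to 0.085 for the medium dose. Between doses it ranged from -0.019 to 0.091 (high against low, with -0.0176 under the row block), -0.055 to 0.055 (medium against low) and -0.021 to 0.075 (high against medium). Npas2 ranged from -0.025 to 0.11 for medium against low dose and Rora from -0.10 to 0.0067 for high against medium dose.

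Uncalled clock genes at the high dose changed sign as follows. With the scanner ratio, Fbxl21 was at 0.15 and Prkaa2 at -0.048. With the authors' table, Csnk1d was at 0.0104 and Nono at 0.0117. With median centring, Csnk1d was at 0.19, Fbxw11 at 0.19, Gsk3b at 0.0898, Nono at 0.20, Sirt1 at 0.15, Nampt at 0.14 and Pparg at 0.0312. Scale normalization put Sirt1 at 0.0158. Cy5 alone put Nono at 0.0218, Ncor1 at -0.0017 and Prkaa2 at -0.015, and the slide block and the row block put Prkaa2 at -0.0217 and -0.0356. The mean of all probes put Fbxl21 at 0.0464, Btrc at 0.15, Gsk3b at 0.0108 and Nono at 0.0078. Without each mouse in turn the ranges were -0.115 to 0.037 for Csnk1d, -0.16 to 0.0296 for Btrc, -0.0768 to 0.015 for Sirt1, -0.0323 to 0.0322 for Ncor1 and -0.0768 to 0.12 for Prkaa2. The cause of these shifts was not tested. Aquantile normalization leaves ratios as they are by construction.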
